A study of Mus musculus with 2 samples.

Results

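The genes described are 10 plasma membrane transporters of glucose, lactate and amino acids, chosen as a named list from 22556 genes counted: Slc2a1, Slc2a3, Slc16a1, Slc1a5, Slc3a2, Slc7a3, Slc7a5, Slc7a11, Slc38a1 and Slc38a2. Messenger RNA was measured in 2 replicates of 1 group, female mouse ES cells (mESCs) of the line iXist-ChrX-Dom, from the strain cross Dom/129S x Cast. The line is 1 clone in which a TetOn promoter, which responds to doxycycline, stands in place of the endogenous Xist promoter on the Dom/129S allele. Both replicates were untreated (0 h of induction), and cells were cultured with foetal calf serum, LIF, L-glutamine, non-essential amino acids and β-mercaptoethanol, on inactivated fibroblast feeders that were removed by pre-plating. With 1 group there is no contrast between treatments, and nothing in the sources used here says that the replicates came from separate cultures.

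Glucose enters cells through facilitative carriers of the SLC2 (GLUT) family, and the lactate formed in glycolysis leaves through proton-coupled carriers of the SLC16 (MCT) family. Amino acids enter through several families with overlapping substrates: SLC1 and SLC38 carriers couple uptake to sodium, while many SLC7 carriers are light chains that reach the membrane only when bound to the heavy chain encoded by Slc3a2. Pluripotent cells are known for high glycolytic flux and for a strong need of external glutamine and other amino acids.

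The deposited counts totalled 23716499 in replicate 1 and 20275749 in replicate 2. The 10 transporter genes together took 45810 counts (0.193%) in replicate 1 and 36615 counts (0.181%) in replicate 2. An observed 0 leaves room for 3 counts, which is 0.126 and 0.148 counts per 1000000 counted fragments (CPM) in the respective libraries, and such floors and the Poisson intervals below cover counting error only. Levels are given as transcripts per 1000000 (TPM), computed with exonic length so that genes can be compared. The label's cell type was checked against markers: 11 of 12 ES cell markers reached 10 TPM, their summed level being 5793 and 4553 TPM. These markers did not move as one between the replicates. Pou5f1, a defining pluripotency factor, was at 110 and 17.2 TPM, and Dppa5a at 626 and 79.6 TPM. Nanog was at 798 and 749 TPM, Klf4 at 230 and 220 TPM and Zfp42 at 807 and 886 TPM. By the exact binomial test described below, 10 of the 12 were lower and 1 higher in replicate 2, beside 45.7% and 15.1% of all genes. With the GC trend, also described below, 7 were lower and 2 higher, beside 21.6% and 23.9%. Of 12 fibroblast markers, 2 reached 1 TPM, none reached 10 TPM and 1 was at 0, with sums of 12.6 and 10.7 TPM. Neural precursor markers, of interest because the cell type label also names NPCs, reached 1 TPM for 1 of 9 genes. The part of other cells in the levels below was not tested, and in bulk RNA fewer cells of a type and less RNA per cell cannot be told apart.

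Transporter mRNA levels spanned more than 3 orders of magnitude. Of the 10 genes, 9 exceeded 1 TPM, 8 exceeded 10 TPM in the mean and 4 exceeded 100 TPM. The median of the 10 genes was 90.8 TPM, beside 0.846 TPM over the 75 other transporter genes of 9 lists of sugar, monocarboxylate and amino acid carriers, and beside 18.4 TPM over the 12249 genes with at least 1 TPM. Members and lists were chosen with earlier results of these data known, so the gap between these medians is not a test. The order by mean level was Slc2a3, Slc38a2, Slc16a1, Slc7a3, Slc2a1, Slc3a2, Slc38a1, Slc1a5, Slc7a5 and Slc7a11. Neighbours in that order whose replicate ranges overlapped were Slc38a2 with Slc16a1, Slc7a3 with Slc2a1, Slc2a1 with Slc3a2, and Slc1a5 with Slc7a5. With 2 values against 2, the smallest two-sided p of an exact permutation test is 0.333, so the order was not tested. Slc38a1 ranked 7 with exonic length in both replicates but 4 by counts without length, the largest such shift among the 10 genes.

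**Figure D1:**
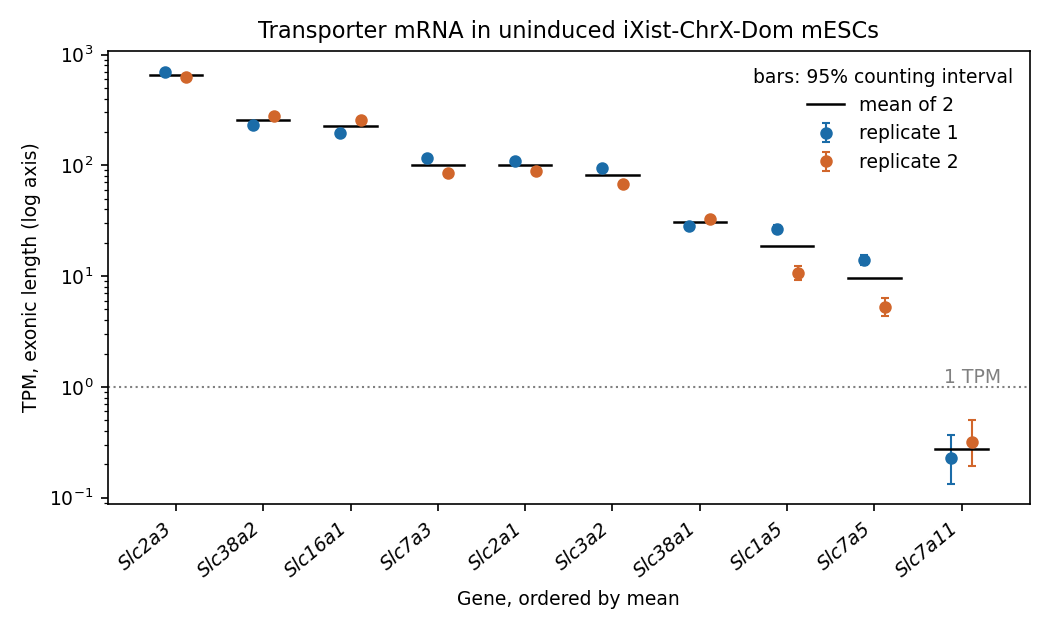
TPM with exonic length (log axis) of the 10 transporter genes in each of the 2 replicates, ordered by the mean (black line), with 95% Poisson intervals of the counts as bars. Slc2a3 stands highest at 659 TPM and Slc7a11 is the gene below the dotted line at 1 TPM, with both replicates inside 0.134 to 0.498 TPM.

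The leading glucose transporter mRNA was that of Slc2a3 (GLUT3), a high-affinity glucose carrier best known from neurons, with 85.5% and 86.6% of the summed TPM of 12 SLC2 genes. Slc2a3 lies on chromosome 6 (mm10, 122727808 to 122742745, minus strand) and had 20683 counts (695 TPM) in replicate 1 and 14938 counts (624 TPM) in replicate 2, a mean of 659 ± 50.0 TPM (SD, n = 2). It ranked 212 of all genes by mean TPM. Slc2a1 (GLUT1), the widely expressed carrier of basal glucose uptake, lies on chromosome 4 (119108744 to 119137329, plus strand). It had 2688 counts (110 TPM) and 1768 counts (89.7 TPM), a mean of 99.7 ± 14.1 TPM. In both replicates Slc2a3 stood above Slc2a1 without overlap, by 6.34-fold in replicate 1 and 6.96-fold in replicate 2.

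The products of these SLC2 genes are close relatives, with 326 identical residues among 487 aligned ones (66.9%) when the annotated coding sequences were translated, yet none of the 50-base words of the Slc2a1 transcripts and 1.45% of those of Slc2a3 occurred in transcripts of other genes. Together Slc2a1 and Slc2a3 made up 99.0% ± 0.067 (SD, n = 2) of that sum. Another 4 SLC2 genes reached 1 TPM, and Slc2a2 (GLUT2), the carrier of liver and pancreatic β cells, was at 0 in both libraries. Sodium-coupled glucose carriers of the SLC5 family reached 1 TPM for 2 of 7 genes and 10 TPM for none.

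Among monocarboxylate carriers the leading gene was Slc16a1 (MCT1), which carries lactate, pyruvate and ketone bodies. It lies on chromosome 3 (104638663 to 104658462, plus strand), with 6493 counts (195 TPM) in replicate 1 and 6842 counts (256 TPM) in replicate 2, a mean of 225 ± 42.8 TPM. It took 86.0% and 91.2% of the summed TPM of 14 SLC16 genes. The next gene, Slc16a6, stood at 8.32 ± 0.403 TPM, and Slc16a8, a lactate carrier of the retinal pigment epithelium, was at 0 in both libraries.

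MCT1 needs a glycoprotein partner to reach the membrane, basigin (Bsg) in most cells and embigin (Emb) in some. Emb was at 396 and 397 TPM, and the replicates differed little. Bsg was far from even, with 317 TPM in replicate 1 against 102.1 TPM in replicate 2. The Bsg level was therefore 1.63 times that of Slc16a1 in replicate 1 and 0.399 times in replicate 2, so which of these genes was higher per length depended on the library. With the deposited length, which includes introns, the mean of Emb was 112 TPM, below those of Bsg (238 TPM) and Slc16a1 (263 TPM).

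Sodium-coupled neutral amino acid carriers of the SLC38 family are a main route of glutamine uptake. Slc38a2 (SNAT2), a carrier known to be induced when amino acids are scarce, lies on chromosome 15 (96687391 to 96699698, minus strand) and had 8036 counts (229 TPM) and 7883 counts (280 TPM), a mean of 255 ± 35.7 TPM. Its neighbour Slc38a1 (SNAT1), on the same strand of chromosome 15 (96571417 to 96642913), had 2268 counts (28.1 TPM) and 2133 counts (32.9 TPM), a mean of 30.5 ± 3.37 TPM. Slc38a2 exceeded Slc38a1 by 8.16-fold and 8.52-fold. This ratio is one of levels per length: by counts alone it was 3.54-fold and 3.70-fold, since the exonic length is 10738 bases for Slc38a1 and 4660 bases for Slc38a2.

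Slc38a1 and Slc38a2 nonetheless made up only 35.9% ± 0.316 of the summed TPM of 11 SLC38 genes. The largest part belonged to Slc38a4 (SNAT4), an imprinted carrier of neutral and cationic amino acids, at 418 and 508 TPM (58.4% ± 0.573). With the deposited length, which includes introns, the order turned, to means of 163 TPM for Slc38a4 and 503 TPM for Slc38a2. Of the 75 other transporter genes, Slc38a4 was also nearest to Slc2a3, at a distance of 0.79 over the 2 libraries on the log2(TPM + 1) scale. The next nearest was the taurine carrier Slc6a6, at 4.76.

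Slc1a5 (ASCT2), the sodium-dependent exchanger of glutamine and small neutral amino acids, was much lower. It lies on chromosome 7 (16781345 to 16798274, plus strand) and had 550 counts (26.5 TPM) in replicate 1 and 179 counts (10.7 TPM) in replicate 2, a mean of 18.6 ± 11.1 TPM. The level in replicate 1 was thus well over that in replicate 2, and the rank of Slc1a5 among the 10 genes was 8 in both. Slc1a5 took 24.5% and 12.03% of the summed TPM of 7 SLC1 genes, less in both libraries than the glial glutamate carrier Slc1a3, which was at 59.3 and 58.2 TPM. With the deposited length this order turned in replicate 1 (21.9 TPM for Slc1a5 and 17.2 TPM for Slc1a3) but not in replicate 2 (9.36 and 17.9 TPM).

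The heavy chain gene Slc3a2 (CD98, 4F2hc), on chromosome 19 (8706881 to 8723369, minus strand), had 2163 counts (95.2 TPM) and 1251 counts (68.5 TPM), a mean of 81.8 ± 18.9 TPM. Its light chain Slc7a5 (LAT1), the exchanger of leucine and other large neutral amino acids, lies on chromosome 8 (121881145 to 121907686, minus strand). It had 371 counts (14.0 TPM) and 112 counts (5.27 TPM), a mean of 9.65 ± 6.20 TPM. Heavy chain mRNA was 6.79 times and 13.0 times that of Slc7a5. Against the sum of 6 light chains that pair with this heavy chain (Slc7a5, Slc7a6, Slc7a7, Slc7a8, Slc7a10 and Slc7a11), the ratio was 1.61 and 1.69, so it differed far less between replicates. The light chain with the most mRNA was Slc7a6 (y+LAT2), at 33.6 and 29.6 TPM, not Slc7a5.

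Slc7a11 (xCT), which with the same heavy chain takes up cystine in exchange for glutamate, was the lowest of the 10 genes. It lies on chromosome 3 (50364935 to 50443613, minus strand) and had 17 counts in replicate 1 and 19 counts in replicate 2. These gave 0.230 TPM (95% Poisson interval 0.134 to 0.368) and 0.319 TPM (0.192 to 0.498). Both counts lie above the limit that a count of 0 allows, and the level of Slc7a5 was 61.1 times higher in replicate 1 and 16.5 times higher in replicate 2. By distance over the 2 libraries on the log2(TPM + 1) scale, the nearest of the other transporters were Slc5a10 and Slc16a7. Slc5a10 was at 0.175 and 0.291 TPM (distance 0.072) and Slc16a7 at 0.300 and 0.302 TPM (distance 0.083).

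The promoters of Slc7a11 and Slc16a1 are shown because these genes mark low and high levels and share a chromosome. The windows run from 250 bases before to 50 bases after the start of the gene (RefSeq, GRCm38.p6, chr3:50443564-50443863 on the minus strand and chr3:104638414-104638713 on the plus strand), and promoters matched for 5 of the 10 genes. Capitals mark the amino acid response element TGATGNAA, to which ATF4 and its partners are known to bind, the E-box CACGTG, a MYC-type element, and TATAAA, each searched on both strands.
Slc7a11: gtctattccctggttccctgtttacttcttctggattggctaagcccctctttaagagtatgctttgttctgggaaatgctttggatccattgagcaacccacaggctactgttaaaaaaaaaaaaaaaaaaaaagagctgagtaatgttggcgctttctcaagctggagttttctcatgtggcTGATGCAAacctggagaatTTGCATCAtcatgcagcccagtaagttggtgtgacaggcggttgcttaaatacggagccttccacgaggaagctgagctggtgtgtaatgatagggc
Slc16a1: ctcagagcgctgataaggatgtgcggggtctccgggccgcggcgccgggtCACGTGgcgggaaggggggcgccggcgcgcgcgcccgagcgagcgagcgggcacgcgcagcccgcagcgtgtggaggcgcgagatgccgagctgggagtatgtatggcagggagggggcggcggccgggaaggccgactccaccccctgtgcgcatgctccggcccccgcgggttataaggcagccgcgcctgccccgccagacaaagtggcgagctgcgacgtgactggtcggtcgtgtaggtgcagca
The Slc7a11 window held 2 matches to TGATGNAA and 4 CpG dinucleotides, and the Slc16a1 window held 1 match to CACGTG and 42 CpG. Over all 32851 promoters of this length, TGATGNAA was found in 3.97%, CACGTG in 7.15% and TATAAA in 13.6%, and the median number of CpG was 7. None of the motifs overlapped another in these windows. A match is a description of the letters, and binding was not measured.

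Slc7a3 (CAT3), a cationic amino acid carrier that moves arginine and lysine and needs no heavy chain, was the X-linked gene of the list. It lies on the X chromosome (101079220 to 101085352, minus strand) and had 2541 counts (116 TPM) and 1490 counts (84.7 TPM), a mean of 100.4 ± 22.2 TPM. It exceeded its widely expressed paralogue Slc7a1 (CAT1) by 14.0-fold and 10.8-fold with exonic length, by 5.68-fold and 4.38-fold without length and by 67.2-fold and 51.8-fold with the deposited length. It took 62.1% and 62.3% of the summed TPM of 14 SLC7 genes. The 604 residues aligned between these paralogues were identical at 363 positions (60.1%).

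The series was made to sort X-linked genes by their level before Xist is induced. Slc7a3 ranked 153 of 530 X-linked genes with at least 1 TPM (percentile 71.3), in the highest of 3 equal groups (low, medium and high), which began at 83.9 TPM. In replicate 2 alone it ranked 175 of 523 and was in the medium group, and in replicate 1 alone it ranked 141 of 540. The X-linked amino acid carrier Slc6a14 was lower, at 0.150 TPM, and Slc38a5 had 13 counts in replicate 1 and 0 in replicate 2.

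**Figure D2:**
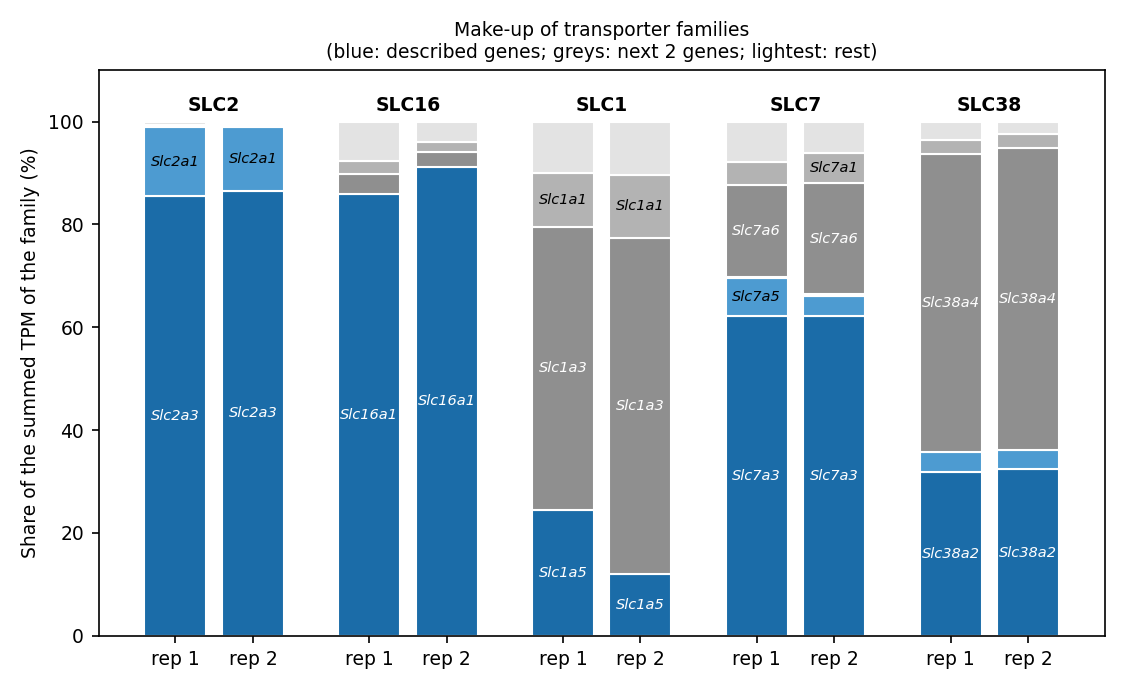
Share (%) of the summed TPM of 5 transporter families taken by single genes, for each of the 2 replicates. Slc2a3 and Slc16a1 take over 80% of their families in both replicates, while in the SLC1 and SLC38 families the largest share belongs to Slc1a3 and Slc38a4 (dark grey).

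Seen over all 85 transporter genes listed, 46 reached 1 TPM, and the 10 genes described held 66.2% of the summed TPM in replicate 1 and 63.2% in replicate 2. Of the 75 others, 37 reached 1 TPM and 8 reached 10 TPM. Besides Slc38a4, these were Slc6a6 (63.2 ± 6.37 TPM), Slc1a3, the branched-chain amino acid carrier Slc6a15 (41.9 ± 4.25 TPM), Slc7a6, the lysosomal arginine sensor Slc38a9 (22.3 ± 2.57 TPM), Slc38a6 (11.3 ± 0.923 TPM) and the glutamate carrier Slc1a1 (11.1 ± 0.238 TPM). At 0 in both libraries were Slc2a2, Slc5a9, Slc16a8, Slc7a12, Slc6a5 and Slc6a18.

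**Figure D3:**
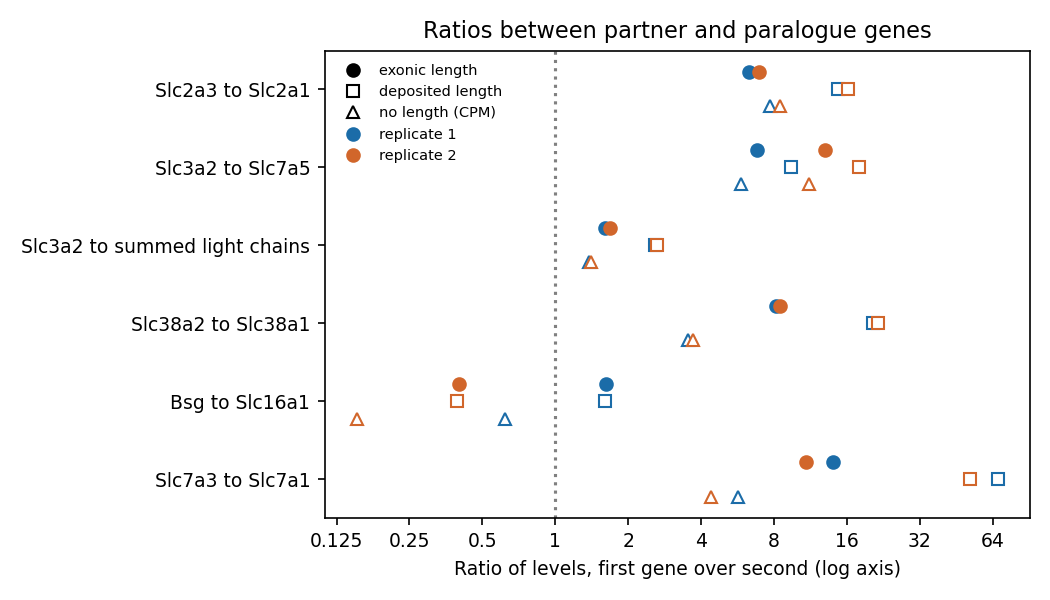
Ratio of levels (log axis) between partner or paralogue genes in each of the 2 replicates, with exonic length (filled circles), the deposited length that includes introns (squares) and no length (triangles). The ratio of Bsg to Slc16a1 crosses 1 between replicates with exonic length, from 1.63 to 0.399, and lies below 1 in both without length (0.618 and 0.152), whereas the other ratios stay above 1 on every scale.

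How far the replicates differed was asked for each gene with a two-sided exact binomial test of its counts against the ratio of library totals, adjusted by Benjamini-Hochberg at 0.05 over the 14536 genes with at least 10 counts. This test compares these libraries, not conditions. Of the 10 genes, 9 passed, 6 lower and 3 higher in replicate 2, beside 60.8% of all genes tested (45.7% lower and 15.1% higher). At the depth of these genes the background is higher still: all 7 with at least 1000 counts passed, as did 77.4% of genes with so many counts. Most genes thus differed between these libraries beyond sampling noise, and the median log2 ratio was -0.31 for the 10 transporters beside -0.31 for all genes tested.

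The largest drops were those of the light chain Slc7a5 and the glutamine exchanger Slc1a5. Slc7a5 fell by 1.497 on the log2 scale from replicate 1 to replicate 2 (exact binomial test, adjusted p = 1.99e-24), and Slc1a5 fell by 1.39 (adjusted p = 5.63e-32). Slc3a2 and Slc7a3 were lower by less, with log2 ratios of -0.56 (adjusted p = 6.94e-28) and -0.54 (adjusted p = 1.33e-30). The glucose carriers Slc2a1 (-0.38, adjusted p = 4.35e-17) and Slc2a3 (-0.24, adjusted p = 1.20e-54) passed as well, but lay close to the median of all genes.

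In the other direction, Slc16a1 was higher in replicate 2 (log2 ratio 0.30, adjusted p = 1.91e-32), followed by Slc38a2 (0.20, adjusted p = 2.90e-17) and Slc38a1 (0.14, adjusted p = 0.00327). Slc7a11, with 17 and 19 counts, had a log2 ratio of 0.38 that did not pass the exact binomial test (adjusted p = 0.584, raw p = 0.504). Relative to the median of all genes tested, 5 of the 10 genes lay below and 5 above. With TMM factors, which raise every log2 ratio by 0.22, 8 genes passed beside 57.7% of all genes (5 lower beside 30.8%, 3 higher beside 27.0%), and Slc2a3 no longer did (log2 ratio -0.02, adjusted p = 0.276).

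The difference moved with base composition. Over the 10 genes, GC content of the longest transcript ran from 40.7% (Slc7a11) to 56.7% (Slc1a5), and Spearman's rho between GC content and the log2 ratio was -0.94 (Pearson's r = -0.90, across genes of the same pair of libraries, which are not independent). Over 9241 autosomal genes rho was -0.65. As an illustration, the first 150 coding bases (GENCODE M21, GRCm38) are shown for 2 GC-rich genes and 1 gene of lower GC content, with G and C in capitals. Those of Slc7a5 are at chr8:121907457-121907606 (minus strand), those of Slc1a5 at chr7:16781901-16782050 (plus strand) and those of Slc16a1 at chr3:104649301-104649450 (plus strand).
Slc7a5: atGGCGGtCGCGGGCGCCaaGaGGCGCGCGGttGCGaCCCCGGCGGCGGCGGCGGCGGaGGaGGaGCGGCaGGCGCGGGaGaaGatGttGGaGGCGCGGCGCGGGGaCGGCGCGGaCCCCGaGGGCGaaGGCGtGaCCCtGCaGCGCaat
Slc1a5: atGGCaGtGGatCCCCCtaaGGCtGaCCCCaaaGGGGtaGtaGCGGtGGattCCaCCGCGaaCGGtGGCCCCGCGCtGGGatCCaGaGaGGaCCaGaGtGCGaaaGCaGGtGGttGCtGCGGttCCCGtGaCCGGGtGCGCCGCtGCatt
Slc16a1: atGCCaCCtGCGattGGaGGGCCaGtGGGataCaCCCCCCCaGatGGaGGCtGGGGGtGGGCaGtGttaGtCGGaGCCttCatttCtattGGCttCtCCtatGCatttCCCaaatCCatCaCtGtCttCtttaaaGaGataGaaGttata
Of these 150 bases, G or C made up 117 in Slc7a5 (78%), 97 in Slc1a5 (64.7%) and 75 in Slc16a1 (50%). These genes were picked for their GC content and ratio, so the stretches illustrate the pattern and do not test it.

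With the expected ratio taken from the GC trend of autosomal genes, 7 of the 10 genes passed beside 45.6% of all genes (3 lower beside 21.6%, 4 higher beside 23.9%). Slc7a5 and Slc1a5 were still lower in replicate 2, by -0.75 (adjusted p = 2.35e-06) and -0.64 (adjusted p = 5.56e-07) on the log2 scale. Slc7a3 shrank to -0.14 (adjusted p = 0.00807) and Slc38a1 grew to 0.48. Slc2a1 turned from lower to higher (0.29, adjusted p = 6.81e-10). Slc2a3 (0.03, adjusted p = 0.147) and Slc3a2 (0.07, adjusted p = 0.253) no longer passed. Over 6 settings of scaling and filtering, 3 genes were called lower each time (Slc1a5, Slc7a3 and Slc7a5), 3 were called higher each time (Slc16a1, Slc38a1 and Slc38a2), and Slc7a11 was called in none. Of the 12570 genes tested in all 6 settings, 16.6% were called lower each time and 12.5% higher each time.

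**Figure D4:**
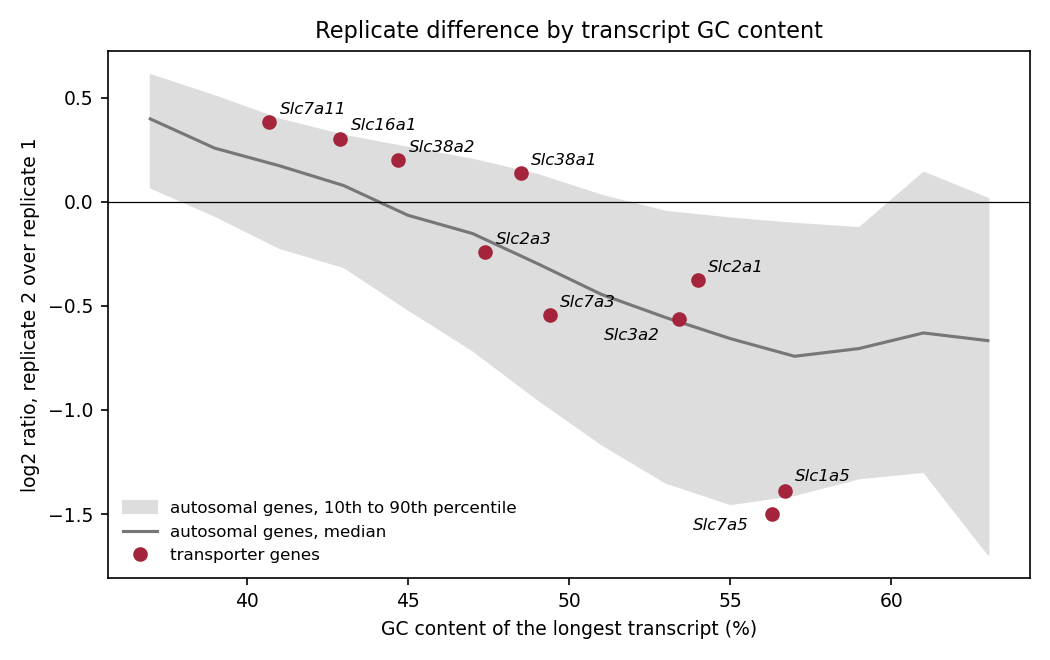
Log2 ratio of replicate 2 over replicate 1 against GC content (%) of the longest transcript, for the 10 transporter genes (red) over the median (line) and the 10th to 90th percentile (band) of autosomal genes. The red points fall from 0.38 at 40.7% GC to -1.39 at 56.7% GC, with Slc7a5 under the lower edge of the band and Slc1a5 just inside it.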

How the data were processed

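The authors deposited raw fragment counts per gene, made with featureCounts 1.5.2 (per the file headers) in reverse-stranded, paired mode over whole transcripts, on mm10. The submitters' processing notes also name Bowtie2 2.3.2 and STAR 2.4.2a. The study's methods describe them for chromatin RNA, where Bowtie2 served to discard rRNA reads and STAR to align the rest, and do not state the alignment of the mRNA libraries. The deposited length column (per the file headers, another unit than the counts) includes introns, and so can the counts, since whole transcripts were counted. The study's methods state that intronic reads are very few in its mRNA data of this line. Because the libraries hold polyadenylated RNA, TPM was computed from the counts with the union of exons of GENCODE M21, found under the same symbol for 21258 genes and under a former symbol for 877, while 421 without a match were left out of TPM. Any intronic fragments are thus divided by exonic length, which can raise genes with long introns. The sample descriptions hold a letter b that the column names lack, so columns were matched by the rest of the name.

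Members and gene lists were chosen with earlier results of these data known. All 10 members are described. Of other lists, genes are counted at 1 TPM, up to 4 non-members with the highest mean TPM and the genes at 0 are named, with the 2 transporters nearest to the highest and lowest member. Further genes in the text (all transporters with at least 10 TPM, Slc6a14, Slc38a5, the ES cell markers, Atf4, Mycn and Nfe2l2) were named after their values were seen. Log2 ratios between replicates were taken on CPM after adding 0.5 counts. The GC trend was a polynomial of degree 3 over autosomal genes that had 50 or more counts in both libraries. Scaling factors came from edgeR 4.0.16 (TMM) and DESeq2 1.42.0 (R 4.3.3), used for scaling only. Other steps used Python 3.11.15, scipy 1.17.1 and Biopython 1.88. Sequences came from GENCODE transcripts and RefSeq promoters of GRCm38. Without molecular identifiers, reads cannot be taken as independent molecules, so intervals and floors cover counting error only. Of the 10 members, none overlapped another annotated gene on either strand.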

Additional observations from a re-analysis of the deposited data

How the results depend on the processing

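No paired analysis was possible because both samples belong to a single group. With the deposited length, which includes introns, the median level of the 10 genes was 68.4 TPM, and their share was 99.3% of SLC2, 36.3% of SLC1, 89.5% of SLC7 and 73.3% of SLC38 mRNA. On the same scale Slc2a3 was 15.4 times Slc2a1, Slc3a2 was 2.61 times its light chains, Slc38a2 was 21.03 times Slc38a1, Slc7a3 was 59.5 times Slc7a1, and Slc7a3 stood at percentile 88.3 of X-linked genes. With no length (CPM), shares were 99.1% of SLC2, 59.8% of SLC7 and 40.4% of SLC38, and the corresponding ratios were 8.07, 1.40, 3.62 and 5.03. The mean ratio of Bsg to Slc16a1 was 1.01 with exonic length, 0.385 with CPM, and ran from 0.399 without replicate 1 to 1.63 without replicate 2, so it changed side. Without a minimum level Slc7a3 stood at percentile 78.5, and at a minimum of 5 TPM 23 transporters were detected in place of 46. For the replicate difference, Slc2a3 turned to 0.069 with DESeq2 size factors and 0.027 with the GC trend, and the GC trend also turned Slc2a1 (0.29) and Slc3a2 (0.074). Of 166 values computed for 36 results under other settings, 6 changed direction (for Slc2a3 and Slc3a2 with the GC trend the call was lost as well), 2 lost their call in the same direction (Slc2a3 with TMM factors and Slc2a1 with DESeq2 size factors) and 30 without a test moved beyond the spread or limit set for them. The others could still change in size, as did Slc7a5 with the GC trend (-0.75). The cause of each change was not tested. With 17 and 19 counts, Slc7a11 has the widest counting intervals of the 10 genes relative to its level.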

Other observations

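Genes that sense amino acids or regulate transporter genes were also measured. Of 22 listed, 20 were in the table and 18 reached 1 TPM. With exonic length the highest was Asns, asparagine synthetase and a target of ATF4, at 537 and 342 TPM, but with the deposited length Txnip (686 TPM) and Atf4 (407 TPM) stood above Asns (273 TPM), and Hif1a had more counts. With exonic length the next were Rheb, an activator of mTORC1, at 310 ± 20.5 TPM (SD, n = 2), and Hif1a, the oxygen-regulated factor known to drive Slc2a1, at 298 ± 35.1 TPM. Txnip, which promotes the internalisation of glucose carriers, stood at 231 and 135 TPM.

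By the exact binomial test between the replicates, 14 of these 20 genes were lower and 2 were higher in replicate 2, beside 45.7% and 15.1% of all genes tested. With the GC trend 6 were lower and 7 higher (beside 21.6% and 23.9%), and with TMM factors 12 and 5 (beside 30.8% and 27.0%). Atf4, the factor of the amino acid response, had 2251 counts in replicate 1 and 459 counts in replicate 2, a log2 ratio of -2.07 (exact binomial test, adjusted p = 8.16e-223), or -1.34 after the GC trend (adjusted p = 4.08e-87). Mycn was at 89.7 and 88.2 TPM, and its direction depended on the setting. By library totals its log2 ratio was -0.114 (exact binomial test, adjusted p = 0.0390). It was 0.110 with TMM factors (adjusted p = 0.0493) and 0.58 after the GC trend (adjusted p = 1.35e-29). Nfe2l2 (NRF2), a known activator of Slc7a11, stood at 145 ± 7.67 TPM, and Slc7a11 itself was below 1 TPM. A link between these mRNA levels was not tested.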
